A study of Mus musculus with 5 samples.

Results

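The mitochondrial ribosomal protein genes were taken as all protein-coding genes of the mouse RefSeq annotation whose symbol starts with Mrpl or Mrps followed by a digit. The rule found 78 genes among 21631 protein-coding genes on chromosomes 1 to 19 and X, of which 49 were Mrpl and 29 were Mrps genes. Their accessibility was read from ATAC-seq, which marks open chromatin by where a transposase can cut it. Each sample was the front part of both forelimbs of a single E11.5 mouse embryo (40 to 48 somites). There were 3 mutant embryos of genotype PrxCre/+;Smarcc1c/c and 2 control embryos of genotype Prx+/+;Smarcc1c/c. Both groups are homozygous for the conditional Smarcc1 allele, and the mutants alone carry Cre, which the Prx promoter drives in limb mesenchyme. Smarcc1 encodes a core subunit of the BAF chromatin remodelling complex. The tissue also holds cells in which this promoter is not active, such as ectoderm, blood and vessels. Each library was made from 50K cells of 1 embryo, with a transposase treatment of 1 h at 37 °C.

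Mitochondria hold ribosomes of their own, which translate the few proteins encoded in mitochondrial DNA, all of them parts of the oxidative phosphorylation complexes. The ribosomal RNAs come from mitochondrial DNA, whereas every ribosomal protein is encoded in the nucleus, made in the cytosol and imported. Mrpl genes encode the large subunit, which forms peptide bonds, and Mrps genes the small subunit, which reads the mRNA. A few symbols stand apart from their names: in mammalian ribosome structures the products of Mrps18a and Mrps30 lie in the large subunit, and the product of Mrps36 is now known as a component of the 2-oxoglutarate dehydrogenase complex.

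Each of the 5 measurements was a list of called peaks, with a fold enrichment over background that the authors' peak caller computed within that library. Folds were therefore used to describe or rank regions within a list, and a region without a peak may still have been accessible below the caller's threshold. The lists held 36719, 42794 and 27194 peaks in mutants 1, 2 and 3, against 68959 and 60333 in controls 1 and 2, so every mutant list was shorter than either control list. Read depth is unknown, and no counting interval can be formed. The lowest fold listed was 2.47, 2.46 and 2.52 in the mutants and 2.43 and 2.29 in the controls. A peak at an end of Smarcc1 itself was found in all 5 libraries, which does not check the deletion, since a peak list does not show it. Of 6 limb mesenchyme markers, the mutant lists had a gene-end peak at 6, 6 and 4 and both control lists at 6. Prrx2 and Tbx5 were the ones missing in mutant 3, the shortest list. Of 5 endothelial markers the mutant lists had 1 each and the control lists 3 and 1, of 4 blood markers every list had 2, of 5 ectoderm markers the mutant lists had 4, 4 and 3 and the control lists 4 each, of 4 muscle precursor markers the mutant lists had 3, 3 and 1 and the control lists 4 and 3, and of 4 neural crest and glia markers the mutant lists had 3, 4 and 3 and the control lists 4 and 3. The hindlimb genes Tbx4 and Pitx1 had peaks too, except Pitx1 in mutant 3, so a peak at a gene end did not by itself mark the cell type. Gene-end peaks of Gata1, Ptprc, Cdh5, Pecam1 and Trp63 were in none of the lists. Those of Klf1, Spi1, Kdr, Epcam, Cdh1 and Fgf8, markers of the same cell types, were in all 5. The part of cell composition in the results below was not tested.

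Overlapping peaks of the 5 lists were merged into 86713 regions. Gene-end regions lay within 1 kb of either annotated end of a gene (111 regions at the mitochondrial ribosomal protein genes, 18178 in all). Distal regions lay within 20 kb of an end of such a gene but not within 1 kb of an end of any gene (192 near the mitochondrial ribosomal protein genes, 33270 near all genes).

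Nearly all mitochondrial ribosomal protein genes had an accessible gene end in mutant and control limb buds alike. A gene-end peak was found for 77, 76 and 74 of the 78 genes in mutants 1, 2 and 3, against 76 and 76 in controls 1 and 2. In all 5 libraries it was found for 74 genes (94.9%), where the share over all protein-coding genes was 56.6%. When only peaks with a −log10 q-value of at least 10 were kept, it was found for 59 genes (75.6%, against 41.9%). These 74 comprised 47 of 49 Mrpl and 27 of 29 Mrps genes, so both ribosomal subunits were covered. Of the 76 genes with a gene-end peak in both controls, 74 (97.4%) had one in all 3 mutants, and the corresponding share over all genes was 88.8%. Most genes had a single region: 52 had 1 gene-end region, 19 had 2, and 6 had 3 to 5, while 1 had none. No test was made of these shares against all genes, since the genes were chosen with earlier results of these data known. Between mutants and controls, 3 against 2 libraries allow no two-sided exact permutation p below 0.2.

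The 4 genes without a gene-end peak in every library were Mrpl4, Mrpl22, Mrps2 and Mrps23, all counterparts of bacterial ribosomal proteins except Mrps23, a small subunit protein that mitochondria added. Each had a region inside the annotated gene that was present in all 5 libraries. For Mrpl22, whose bacterial counterpart lines the exit tunnel of the nascent chain, the region chr11:58171279-58172206 (mm10) had folds of 5.71, 7.23 and 5.89 in mutants 1, 2 and 3, against 6.59 and 7.41 in controls 1 and 2. It spans the start site of the RefSeq promoter table at position 58171664. For Mrps2 the region chr2:28467743-28468536 had folds of 4.78, 6.24 and 4.88 in the mutants and 6.94 and 5.39 in the controls, and it spans the start site at 28468066. A second region at an annotated end of Mrps2, which an end of 1700007K13Rik shares, reached folds of 3.86 and 4.93 in mutants 1 and 2, with 5.72 and 5.66 in the controls, and no peak in mutant 3. For Mrps23 the region chr11:88203594-88205118 had folds of 8.02, 10.2 and 5.21 in the mutants and 9.88 and 8.89 in the controls, and it spans the start site at 88204388. In Mrpl4 the region chr9:21002425-21003561 had folds of 4.63, 6.08 and 4.71 in the mutants and 6.24 and 5.52 in the controls. Mutant and control folds overlapped in each of these start-site or within-gene regions, although folds are not scaled between libraries. By their distance from the annotated ends, these 4 regions count among the distal regions below.

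The promoter table, which is of assembly GRCm38.p6 with the coordinates of mm10, gives a start site for 69 of the 78 genes. It was used after the positions of these exceptions had been seen. All 69 genes had a peak within 1 kb of the first start site in all 5 libraries, where the share over all protein-coding genes of the table was 56.8%. The start sites of 6 genes lay over 1 kb from both annotated ends. At the start sites the median fold was 6.94, 7.88 and 6.56 in mutants 1, 2 and 3, against 8.5 and 8.08 in controls 1 and 2. The lowest fold at any of these start sites was 3.20, in mutant 3, above the lowest fold of every list.

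The 250 bases before the start sites of Mrpl22 and Mrps2 are shown because the region present in all 5 libraries spans that start site and no gene-end region was in every library. The summits lay just downstream of the start in all libraries, at 60 to 95 bp for Mrpl22 and 41 to 87 bp for Mrps2, so the printed bases hold the upstream side of the region. They are plus-strand RefSeq sequence, chr11:58171414-58171663 and chr2:28467816-28468065, from the first to the last base before the start. Capitals mark matches to 9 motifs that are listed further on. Mrpl22 holds an ETS and an NRF1 match near the start, and Mrps2 holds none of the motifs.
Mrpl22: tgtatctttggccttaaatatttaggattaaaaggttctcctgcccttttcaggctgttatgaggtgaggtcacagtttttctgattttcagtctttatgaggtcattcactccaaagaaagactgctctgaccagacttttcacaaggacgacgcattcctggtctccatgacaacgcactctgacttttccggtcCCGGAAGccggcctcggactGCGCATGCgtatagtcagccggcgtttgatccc
Mrps2: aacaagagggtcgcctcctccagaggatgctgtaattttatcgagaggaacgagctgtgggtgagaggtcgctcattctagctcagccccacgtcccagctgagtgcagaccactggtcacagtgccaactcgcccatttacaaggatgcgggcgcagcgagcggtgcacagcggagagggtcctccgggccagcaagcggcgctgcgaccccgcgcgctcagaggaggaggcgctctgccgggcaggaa

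Most peak summits lay close to the start sites in both genotypes. The median summit was 34, 56 and 46 bp downstream of the start in mutants 1, 2 and 3, against 69 and 10 bp in controls 1 and 2. Within 150 bp on either side of the start lay 42, 40 and 41 of 69 summits in the mutants, and 41 and 44 in the controls. The mutant medians lay between those of the 2 controls. Of the 69 regions, 68 spanned the start site itself.

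**Figure D1:**
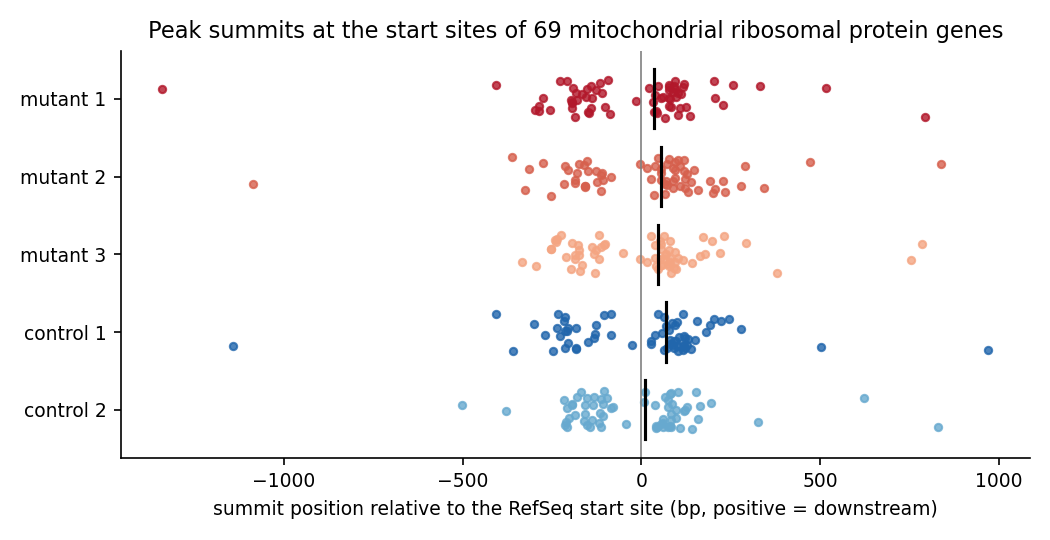
Position of the strongest summit relative to the RefSeq start site (x axis, bp, positive is downstream) at 69 mitochondrial ribosomal protein genes, 1 row per library and 1 point per gene, with the median as a black line. The summits lie on both sides of the start in each row, and the medians lie 34 to 56 bp downstream in the mutants and 69 and 10 bp downstream in the controls.

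Among gene-end regions found in all 5 libraries, those of the mitochondrial ribosomal protein genes lay near the middle of the range of fold. Over the 82 regions found in all 5 libraries, the median fold was 6.56, 7.88 and 6.39 in mutants 1, 2 and 3, against 8.15 and 7.88 in controls 1 and 2. For all 11355 gene-end regions present in every library, the median fold was 6.94, 8.05 and 6.22 in the mutants and 8.84 and 8.22 in the controls. To set libraries side by side, each region was given its percentile by fold (its rank, 0 to 100) among these 11355 regions. The median rank of the 82 regions was 43.2, 48.1 and 53.2 in the mutants and 41.8 and 46.1 in the controls. Peaks were narrower than at gene ends in general, with a median width of 962, 967 and 757 bp in the mutants and 1147 and 1044 bp in the controls, against 1149, 1197 and 897 bp in the mutants and 1360 and 1256 bp in the controls over all such regions.

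The strongest gene-end regions, by mean rank over the 5 libraries, were those of Mrps14, Mrps36, Mrpl18, Mrps18b, Mrps28 and Mrpl17. Mrps14, a small subunit protein with a bacterial counterpart, had folds of 11.1, 10.8 and 13.8 in mutants 1, 2 and 3, against 14.0 and 17.2 in controls 1 and 2. Mrps36 had folds of 12.5, 12.5 and 10.4 in the mutants and 13.0 and 12.9 in the controls. For Mrpl18, a large subunit protein, folds were 11.1, 14.0 and 11.4 in the mutants and 11.3 and 14.8 in the controls, in a region shared with Tcp1, which encodes a subunit of the cytosolic chaperonin. The groups overlapped in rank at each of these regions. At the other end of the order stood Mrps18a, Mrpl53, Mrpl55, Mrps21, Mrpl3 and Mrps34. Mrps18a had folds of 4.17, 3.94 and 3.20 in the mutants and 5.03 and 4.99 in the controls, the lowest mean rank (7.25) of the 74 genes ranked. Mrpl53 and Mrpl55, large subunit proteins without a bacterial counterpart, came next. Mrpl53 had folds of 3.86, 5.58 and 3.70 in the mutants and 5.37 and 5.25 in the controls. Mrpl55 had folds of 4.47, 5.26 and 4.21 in the mutants and 5.72 and 4.99 in the controls. Mean ranks spanned 12.3 to 91.5 over 47 Mrpl genes and 7.25 to 93.3 over 27 Mrps genes, so both classes ran over nearly the whole range.

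**Figure D2:**
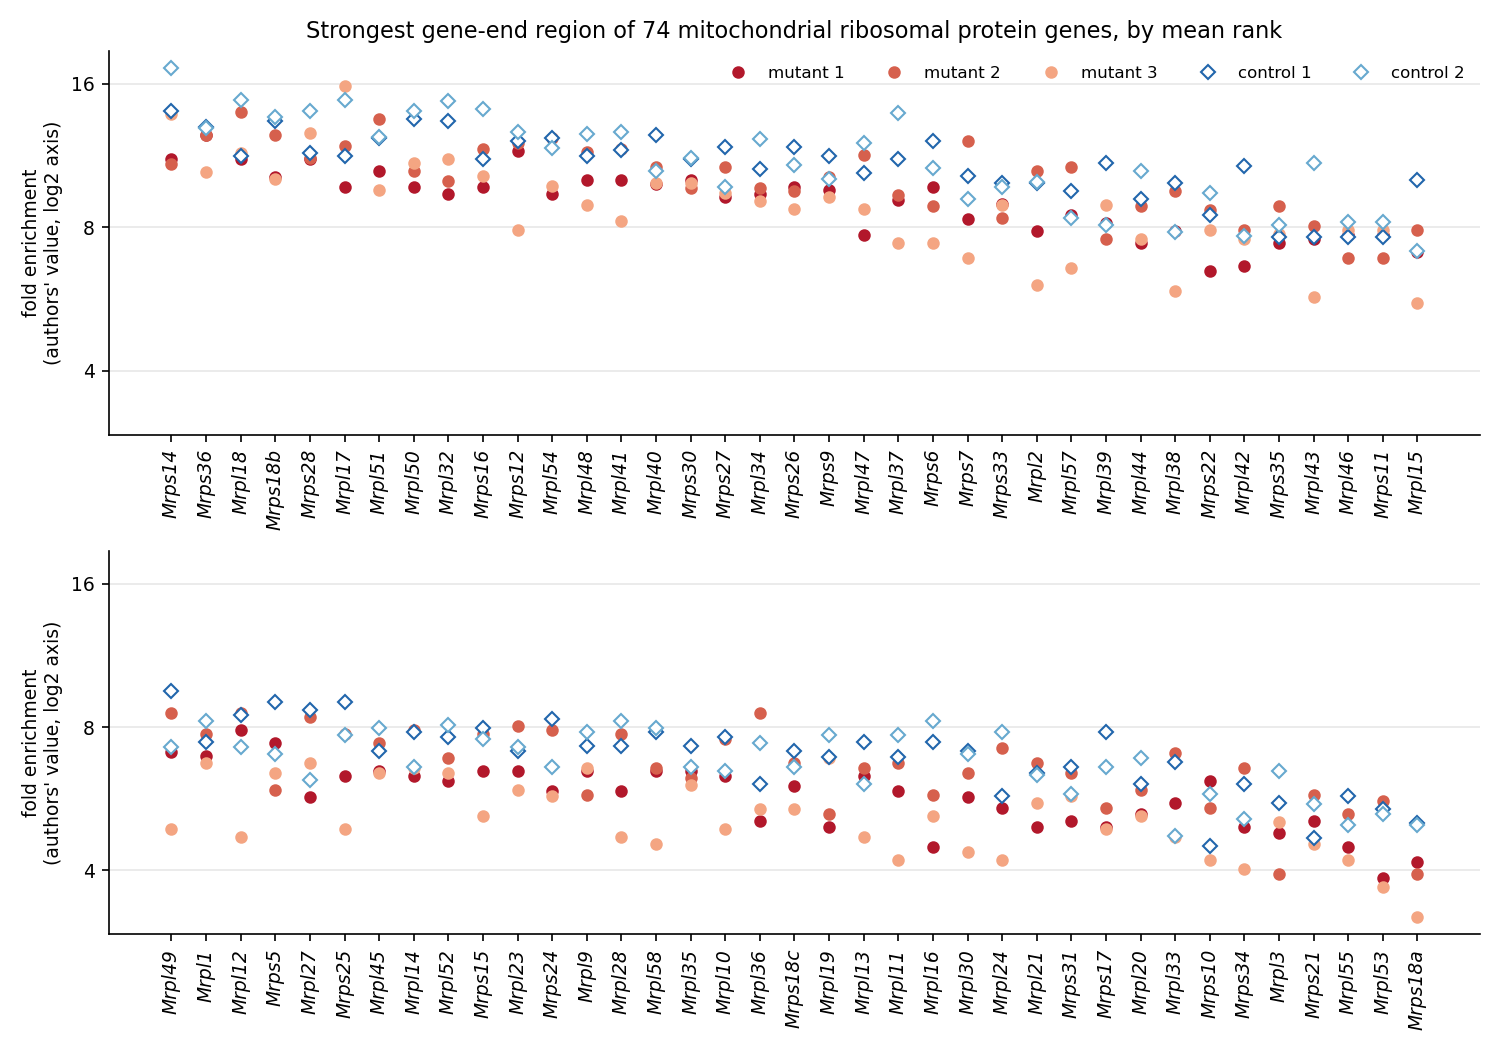
The authors' fold enrichment (y axis, log2 scale) of the strongest gene-end region of 74 mitochondrial ribosomal protein genes, ordered from the highest mean rank (upper left) to the lowest (lower right), with filled circles for the 3 mutants and open diamonds for the 2 controls. Mrps14 stands at one end and Mrps18a at the other, and the mutant and control symbols of most genes lie in the same band, although folds are not scaled between libraries. Mrpl46 and Mrps11 share 1 region and so have the same points.

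The 250 bases before the start of the 3 strongest and the 3 weakest of these genes are shown to set strong and weak peaks beside their letters, each read 5′ to 3′ on the strand of the gene, with motif matches in capitals. The first 3 are Mrps14 (chr1:160194965-160195214, plus strand), Mrps36 (chr13:100744660-100744909, minus strand) and Mrpl18 (chr17:12916092-12916341, minus strand). All 3 strong ones hold at least 1 GC box (the SP and KLF motif), Mrps36 and Mrpl18 also hold a CCAAT match, and Mrpl18 holds an ETS match.
Mrps14: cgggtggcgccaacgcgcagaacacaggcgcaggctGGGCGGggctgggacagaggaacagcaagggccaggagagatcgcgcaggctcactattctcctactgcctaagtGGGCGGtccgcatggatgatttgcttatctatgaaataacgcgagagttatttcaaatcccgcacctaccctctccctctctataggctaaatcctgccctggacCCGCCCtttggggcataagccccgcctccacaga
Mrps36: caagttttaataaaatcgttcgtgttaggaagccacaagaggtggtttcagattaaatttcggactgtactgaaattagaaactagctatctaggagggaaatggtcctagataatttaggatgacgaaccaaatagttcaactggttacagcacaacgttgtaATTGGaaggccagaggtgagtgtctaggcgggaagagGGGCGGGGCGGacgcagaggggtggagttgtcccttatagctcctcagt
Mrpl18: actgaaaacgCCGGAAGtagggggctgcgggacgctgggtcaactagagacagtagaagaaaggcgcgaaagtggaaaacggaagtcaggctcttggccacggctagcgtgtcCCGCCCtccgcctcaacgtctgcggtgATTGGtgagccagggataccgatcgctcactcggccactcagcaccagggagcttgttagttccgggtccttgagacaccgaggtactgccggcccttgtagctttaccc

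The weak ones are Mrps18a (chr17:46110754-46111003), Mrpl53 (chr6:83108858-83109107) and Mrpl55 (chr11:59202236-59202485), all on the plus strand. Mrps18a and Mrpl53 hold ETS and CCAAT matches and no GC box, and Mrpl55 holds GC boxes alone. Matches thus occur at both ends of the order.
Mrps18a: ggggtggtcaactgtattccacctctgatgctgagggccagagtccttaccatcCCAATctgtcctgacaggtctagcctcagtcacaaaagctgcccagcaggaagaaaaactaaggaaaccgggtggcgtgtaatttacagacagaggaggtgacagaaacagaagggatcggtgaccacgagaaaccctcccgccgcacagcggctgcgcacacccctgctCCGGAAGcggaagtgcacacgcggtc
Mrpl53: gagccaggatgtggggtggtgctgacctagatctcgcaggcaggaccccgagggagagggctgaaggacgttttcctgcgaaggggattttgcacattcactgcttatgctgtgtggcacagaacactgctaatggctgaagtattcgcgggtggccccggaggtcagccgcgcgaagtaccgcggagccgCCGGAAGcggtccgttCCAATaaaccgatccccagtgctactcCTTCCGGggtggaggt
Mrpl55: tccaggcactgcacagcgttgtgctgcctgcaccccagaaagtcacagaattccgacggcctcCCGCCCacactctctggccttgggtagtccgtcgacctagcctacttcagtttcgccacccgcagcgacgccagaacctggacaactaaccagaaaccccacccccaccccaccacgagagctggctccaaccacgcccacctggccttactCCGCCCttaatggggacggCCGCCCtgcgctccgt

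Promoters of the mitochondrial ribosomal protein genes held ETS, YY1 and NRF1 motif matches at about 2 or more times the share of the open promoters, and the ZNF143 and THAP11 motif at a share higher by less. The search covered 250 bases before to 50 bases after the start, on both strands, and no motif's letters are contained in another's, although matches can overlap. The ETS motif (CCGGAAG), which GABPA binds, was in 25 of 69 promoters (36.2%), where it was in 18.6% of the 9816 protein-coding promoters with a peak in all 5 libraries and in 9.20% of all 26794 promoters of the table. The YY1 motif (AAGATGGC) was in 12 (17.4%), against 4.76% of the open promoters and 2.89% of all. The NRF1 motif (GCATGCGC), named for a regulator of nuclear genes of mitochondria, was in 8 (11.6%), against 5.80% and 2.81%. At least 1 of these 3 was in 37 of 69 promoters (53.6%), against 26.7% and 13.8%. At least 2 were in 8 promoters, those of Mrpl17, Mrpl22, Mrpl32, Mrpl33, Mrps12, Mrps18a, Mrps18b and Mrps27. In the 250 bases before the start alone, the ETS motif was in 17 promoters (24.6%, against 14.2% of the open promoters and 7.11% of all). The NRF1 motif was in 8 there (11.6%, against 4.81% and 2.32%). The YY1 motif was in 4 (5.80%, against 1.99% and 1.60%), and its share was lower in this window than in the longer one in all 3 sets.

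The ZNF143 and THAP11 motif (ACTACAA) was in 5 promoters (7.25%), against 4.50% of the open promoters and 3.48% of all. The GC box (GGGCGG) was in 34 promoters (49.3%), against 69.1% of the open promoters and 36.2% of all. CCAAT was in 39.1%, against 39.5% and 38.1%. The CREB motif (TGACGTCA) was in 2.90%, against 3.61% and 1.89%. An E-box (CACGTG) was in 7.25%, against 10.6% and 7.30%, and TATAAA in 5.80%, against 6.18% and 14.2%. The median GC content was 58.3%, against 62.0% in the open promoters and 52.7% in all, and the median number of CG dinucleotides was 21, against 22 and 7. A match is a run of letters, not a shown binding site, and no test was made of these shares.

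**Figure D3:**
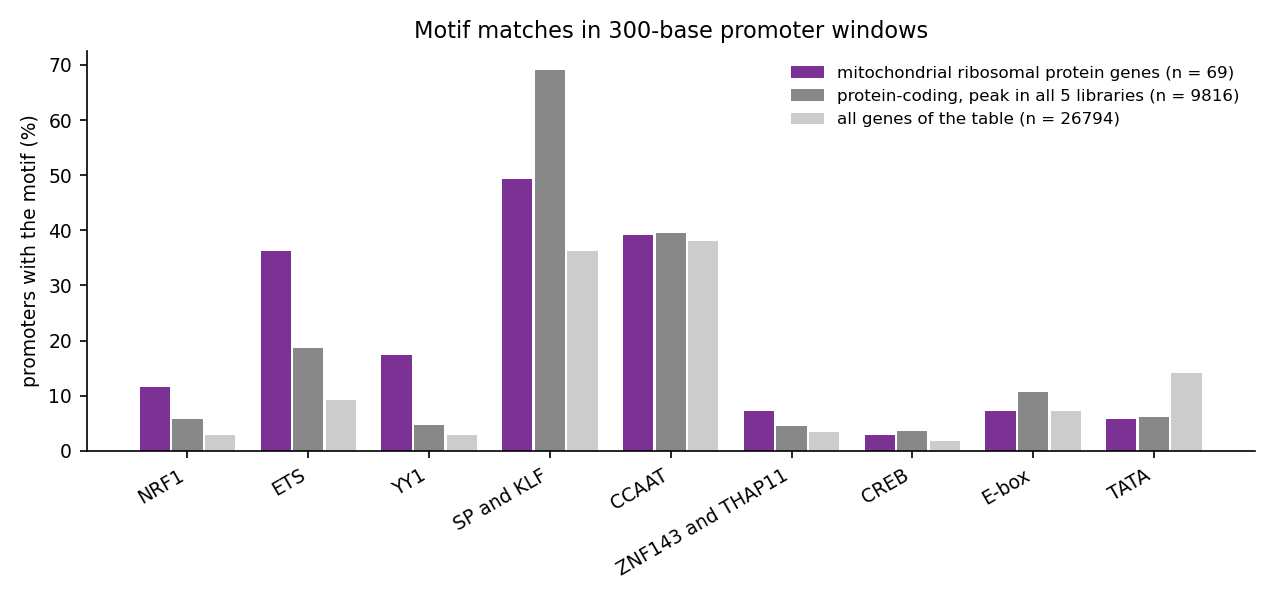
Share of promoters (y axis, percent) with a match to each of 9 motifs (x axis) in the 300-base window, for 69 mitochondrial ribosomal protein genes, 9816 protein-coding promoters with a peak in all 5 libraries and all 26794 promoters of the table. The ETS, YY1 and NRF1 bars of the mitochondrial ribosomal protein genes are the highest of their groups (36.2%, 17.4% and 11.6%), and the GC box bar (49.3%) is lower than that of the open promoters (69.1%).

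The gene-end regions of these genes were often shared with a neighbour. Either annotated end of a gene was counted, so the first shares below are not of promoters alone. Of 89 gene-end regions of the mitochondrial ribosomal protein genes found in both controls, 43 (48.3%) also lay within 1 kb of an end of another protein-coding gene, where this share was 16.3% over all 13975 gene-end regions found in both controls. Head-to-head pairs, with start sites within 1 kb on opposite strands and pointing away from each other, held 23 of 69 genes (33.3%), against 12.9% of the protein-coding promoters with a peak in all 5 libraries and 7.61% of all protein-coding promoters. Several partners act in mitochondria themselves. Mrps12 starts 147 bp from Sars2, the mitochondrial seryl-tRNA synthetase, and Mrpl47 starts 308 bp from Ndufb5, a complex I subunit. Mrps27 starts 108 bp from Ptcd2, a mitochondrial RNA-binding protein. Others do not, as with Mrpl49 and Fau (192 bp), whose product is processed to a cytosolic ribosomal protein, and Mrpl40 and Hira (113 bp), a histone chaperone. Mrpl46 and Mrps11 formed a pair of mitochondrial ribosomal protein genes, 42 bp apart. Their common region chr7:78782503-78783800 had folds of 7.71, 6.90 and 7.91 in mutants 1, 2 and 3, against 7.63 and 8.22 in controls 1 and 2, and the groups overlapped. A peak in such a region cannot be assigned to one gene of the pair.

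Gene-end regions of the controls were nearly all found again in the mutants. Of the 89 regions found in both controls, 86, 87 and 83 had a peak in mutants 1, 2 and 3 (96.6%, 97.8% and 93.3%), where the shares over all gene-end regions were 91.2%, 93.1% and 83.1%. A peak in no mutant was seen for 1 of 89 regions (1.12%), where the share over all gene-end regions was 4.64%. That region, chr7:142531917-142532248 near Mrpl23, was weak, with folds of 2.77 and 2.69 in the controls. Mrpl23, a large subunit protein, kept a second gene-end region in every library, with folds of 6.48, 8.05 and 5.89 in the mutants and 7.11 and 7.28 in the controls. No gene-end region of the 78 genes was in all mutants and no control (0.033% over all gene-end regions). The count of regions absent from the mutants rests on which libraries are used: it was 4 of 88 without mutant 2, 5 of 96 without control 1 and 8 of 97 without control 2, where the shares over all gene-end regions were 7.68%, 9.71% and 12%.

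Strength in the controls was the mean percentile of fold within the 2 control lists, in deciles from 1 (weakest) to 10. Of the 89 gene-end regions, 70 (78.7%) lay in deciles 8 to 10, where 64.1% of all gene-end regions lay. None of these 70 was absent from all mutants, and the share over all gene-end regions of these deciles was 0.10%. In deciles 4 to 7 it was 0 of 15, against 5.97% over all, and in deciles 1 to 3 it was 1 of 4, against 29.3%. With 1 of the 89 regions absent, the part of strength in the low share of absent ones was not tested.

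Distal regions near the mitochondrial ribosomal protein genes were absent from the mutants more often than their gene-end regions, and less often than distal regions near genes in general. Of 85 distal regions found in both controls, 58, 65 and 38 had a peak in mutants 1, 2 and 3 (68.2%, 76.5% and 44.7%), where the shares over all distal regions near a gene were 58.2%, 60.8% and 41.2%. A peak in no mutant was seen for 12 (14.1%), where the share over all was 29.1%. Peaks in all 3 mutants were seen for 32 (37.6%, against 34.5% over all). These 32 include the start-site or within-gene regions of Mrpl4, Mrpl22, Mrps2 and Mrps23 described above, and the share without them was not computed. In deciles 1 to 3 of strength, 6 of 26 were absent (23.1%, against 47.9% over all), in deciles 4 to 7, 5 of 38 (13.2%, against 22.2%), and in deciles 8 to 10, 1 of 21 (4.76%, against 3.06%). Distal regions 1 to 5 kb from the nearest gene end were absent in 5 of 42 cases (11.9%, against 22.9% over all), and those 5 to 20 kb away in 7 of 43 (16.3%, against 33.3%). These genes lie in denser neighbourhoods, with a median of 2 other protein-coding genes within 20 kb, against 1 over all genes. They are also shorter, with a median length of 7.69 kb, against 17.3 kb. The part of either in these shares was not tested. The count of 12 became 26 of 89 (29.2%, against 37.9% over all) without mutant 2, 34 of 115 (29.6%, against 42.4%) without control 1 and 44 of 126 (34.9%, against 47.9%) without control 2. With every list trimmed by fold to as many peaks as the shortest one holds, it was 3 of 38 (7.89%, against 15.1%). Regions that neighbour each other near 1 gene are not independent, and no test was made.

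**Figure D4:**
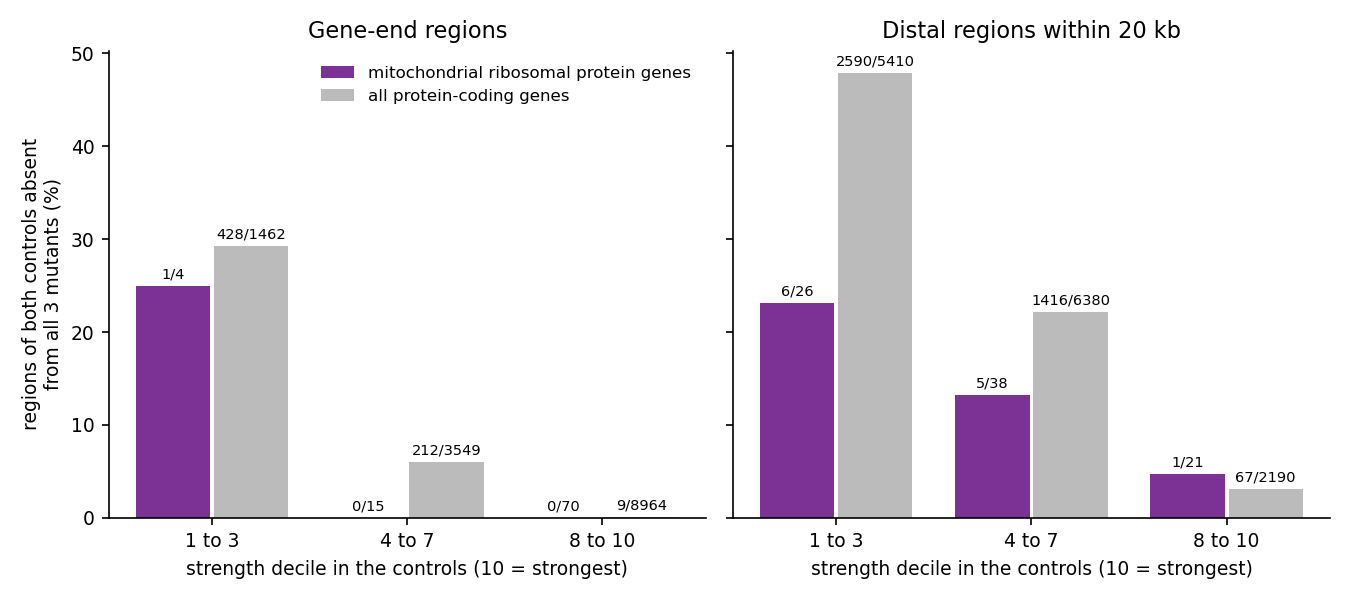
Share of regions found in both controls and in none of the 3 mutants (y axis, percent) by strength decile in the controls (x axis), for gene-end regions (left) and distal regions within 20 kb of a gene end (right). Purple bars are regions of the mitochondrial ribosomal protein genes and grey bars those of all protein-coding genes, with the counts above each bar: 6 of 26, 5 of 38 and 1 of 21 distal regions of the mitochondrial ribosomal protein genes were absent.

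The 12 absent distal regions lay near 10 genes. The strongest was chr16:92097837-92099350, inside Mrps6, a small subunit protein with a bacterial counterpart. It had folds of 10.2 and 7.28 in controls 1 and 2 and stood in decile 9, where 0.825% of all distal regions near a gene were absent from all mutants. It lies 12.9 kb from the nearest end of Mrps6, a gene that shares its gene-end region with the inositol transporter gene Slc5a3. That shared region was found in all libraries, with folds of 9.72, 8.87 and 7.40 in the mutants and 12.1 and 10.6 in the controls. Within 20 kb of Mrpl19 the region chr6:81937379-81938349 had control folds of 3.99 and 7.55, and it lies inside the neighbouring gene Gcfc2. The region near Mrps18a (chr17:46104300-46105042) had control folds of 4.51 and 5.39, and the one near Mrps5 (chr2:127608920-127609657) had 5.55 and 3.91. Mrps28 had 2 such regions, 1 inside the gene with control folds of 5.03 and 4.31 and 1 inside Tpd52 with 3.81 and 3.37. The others lay near Mrps33, Mrps9, Mrpl38 (2 regions), Mrpl54 and Mrps14, with control folds between 2.56 and 4.85. Apart from the one in Mrps6, all stood in deciles 1 to 6.

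Distal regions were spread unevenly over the genes. In any library, 61 of the 78 genes had at least 1 and 17 had none. Mrpl37 had the most with 16, followed by Mrpl54 with 15, Mrpl38 with 14, Mrpl23 with 9 and Mrpl28 with 7, a number that Mrpl52 also reached. Of the 16 regions near Mrpl37, 2 were in both controls and neither of these was absent from all mutants. Of all 192 regions, 88 (45.8%) were in exactly 1 library. Neither this share nor the spread over genes was set beside that over all genes, so neither shows a trait of these genes. One region, chr4:107035911-107036311, 19.6 kb from Mrpl37 and inside Ssbp3, was in all mutants and no control, where 0.0691% of all distal regions near a gene were. Its folds of 3.09, 2.96 and 3.03 in mutants 1, 2 and 3 lay close to the lowest fold of each list.

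Ranks of most gene-end regions overlapped between the groups. Of the 82 regions found in all 5 libraries, 7 (8.54%) ranked higher in all 3 mutants than in both controls, where this share was 10.3% over all gene-end regions. The opposite held for 2 (2.44%), against 9.64% over all. The share ranked higher lay on either side of the share over all: it was 12.7%, against 9.97%, with lists of equal length, 11.8%, against 10.3%, with gene-end regions chosen by their strongest summit, and 10.4%, against 10.3%, with a window of 500 bp. No region can go below an exact two-sided permutation p of 0.2 with 3 against 2 libraries. By mean rank, 50 of the 82 were higher in mutants and 32 lower, with a median difference of 2.24 percentile points, against 52.6% higher and a median of 0.457 points over all gene-end regions. The counts grew when any 1 library was left out, as fewer libraries separate more easily: the higher ones numbered 13, 16 and 17 without mutants 1, 2 and 3 and 22 and 26 without controls 1 and 2, and the lower ones 6, 6 and 9 without the mutants and 21 and 8 without the controls. Without mutant 2 the share ranked higher was 19.5%, against 17% over all gene-end regions, and without control 2 it was 31.7%, against 25%. It was 20%, against 19.8%, without mutant 3 and 26.8%, against 25%, without control 1. Without mutant 1 it did not differ from the share over all after rounding. Without control 1 the share ranked lower was 25.6%, against 22.9%. In the other cases the share ranked lower was below that over all. It was 7.41%, against 14.7%, without mutant 1 and 7.32%, against 15.9%, without mutant 2. It was 10.6%, against 18.1%, without mutant 3 and 9.76%, against 24%, without control 2.

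Among the regions whose groups did not overlap, the largest differences above were at Mrps35 and Mrpl36. Mrps35, a small subunit protein, had ranks of 56.3, 60.9 and 69.9 in mutants 1, 2 and 3, against 34.9 and 48.5 in controls 1 and 2, a mean difference of 20.7 points. Mrpl36, one of the smallest proteins of the large subunit, had ranks of 30.2, 35.4 and 57.7 in the mutants and 18.2 and 24.9 in the controls, a difference of 19.6. The mutant values spread widely, and mutant 3 was the highest for both genes. Mrpl33, another small protein of the large subunit, had ranks of 27.8, 37.5 and 27.5 in the mutants and 24.0 and 10.7 in the controls (13.6). Mrpl14, which shares its region with Tmem63b, had 39.7, 48.1 and 55.5 in the mutants and 37.2 and 31.3 in the controls (13.5). For the stronger region of Mrpl23 the ranks were 42.0, 50.4 and 45.9 in the mutants and 28.0 and 38.9 in the controls (12.7). In these 3 genes the gap between the nearest mutant and control was under 4 points. The remaining 2 were Mrps21 and Mrps18c, with differences of 10.7 and 5.81. Single libraries moved several of these differences by over 1.5 times: that of Mrpl36 was 10.6 and that of Mrpl14 8.87 without mutant 3, that of Mrpl33 was 6.94 without control 2, that of Mrpl23 was 7.23 without control 1, and that of Mrps21 was 3.75 without control 1 and 17.8 without control 2. Below stood Mrps17, a small subunit protein with a bacterial counterpart, with ranks of 19.4, 18 and 30.1 in the mutants and 37.2 and 31.3 in the controls (-11.7). Mrpl50, which shares its region with Zfp189, had 83.8, 79.2 and 92.2 in the mutants and 92.9 and 93.5 in the controls (-8.11, and -5.13 without mutant 2).

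The lowest differences of the 82 regions were at genes whose groups overlapped. At Mrps27, a small subunit protein that mitochondria added, the region chr13:99413358-99415276 had ranks of 9.37, 0.969 and 30.1 in mutants 1, 2 and 3, against 28.0 and 40.5 in controls 1 and 2, a mean difference of -20.8. It lies at the annotated end away from the start site at 99344786. The region that spans this start site had ranks of 79.6, 80.7 and 84.9 in the mutants and 82.9 and 66.8 in the controls (6.89). Mrpl16, a large subunit protein with a bacterial counterpart, had ranks of 13.2, 21.6 and 35.6 in the mutants and 32.5 and 50.2 in the controls (-17.9). The region that Mrpl37 shares with Cyb5rl had ranks of 77.9, 67 and 66.2 in the mutants and 76.8 and 93.1 in the controls (-14.6). In each of these regions with a negative difference, 1 mutant ranked above 1 control. Mrpl57, in a region shared with Ska3, had a difference above of 13.6 with groups that overlapped.

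**Figure D5:**
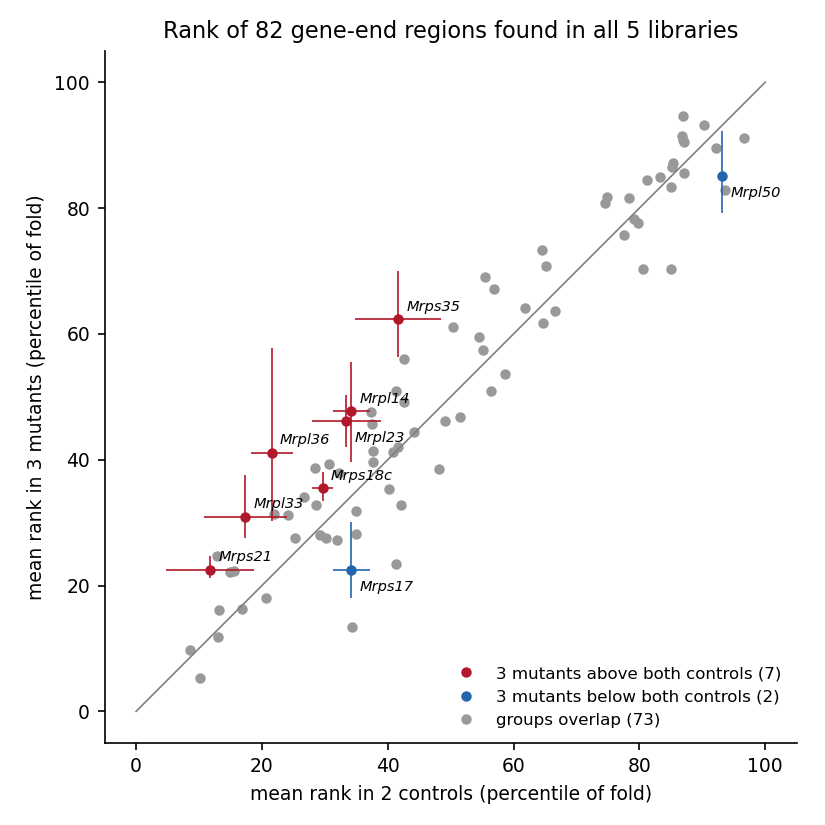
Mean rank by fold in the 3 mutants (y axis, percentile) against that in the 2 controls (x axis, percentile) for the 82 gene-end regions found in all 5 libraries, with the line of equality. Coloured points are the 7 regions with all mutants above both controls (red) and the 2 with all mutants below (blue), with bars from the lowest to the highest library of each group, and grey points are the 73 whose groups overlap.

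Most other genes of the same pathway had an accessible gene end too. Among 5 mitochondrial ribosomal proteins with other names (Dap3, Ptcd3, Chchd1, Aurkaip1 and Gadd45gip1), all had a gene-end peak in all 5 libraries. The same held for 13 of 13 translation factors, 22 of 22 assembly factors, 15 of 17 tRNA synthetases and 90 of 101 nuclear genes of oxidative phosphorylation (89.1%). Over all protein-coding genes the share was 56.6%. Of the gene-end regions found in both controls, those in no mutant numbered 0 of 7 for the ribosomal proteins with other names, 0 of 18 for the synthetases, 0 of 13 for the translation factors, 0 of 24 for the assembly factors and 2 of 107 for oxidative phosphorylation. The share over all gene-end regions was 4.64%. At that share, lists of 7 to 24 regions would hold few or none. The synthetases not found were Aars2, with a gene-end peak in no library, and Tars2, with one in control 2 only. At the start sites of the promoter table both had a peak in all 5 libraries, as did the cytochrome c oxidase genes Cox5a and Cox7a2. Ndufa1, a complex I subunit, had a gene-end peak in all libraries but mutant 3. Cox7a1, a form of heart and muscle, had one in mutant 1 and control 2. The genes without any gene-end peak included Cox6a2 and Cox8b, forms of heart and skeletal muscle, and Cox7b2 and Cox8c, forms of testis.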

How the data were processed

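ATAC-seq peak lists of 3 mutant and 2 control embryos were used. The submitters' processing notes name bcl2fastq 2.20.0, Bowtie2 2.3.5, MACS2 and the mm10 build. For MACS2 the version and options, for duplicates their removal and for the transposase cut the read shift remain unstated in the sources used here. A missing shift would move borders by a few bases. The authors deposited 1 list per library, not pooled. In each deposited row stand positions, a display score (not used), a fold enrichment ratio, and a −log10 p-value (not used) and −log10 q-value at the summit.

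Peaks on chromosomes 1 to 19 and X that shared at least 1 bp were merged with Python 3.11.15, NumPy 2.4.6, pandas 2.3.3 and SciPy 1.17.1. Genes and promoters came from RefSeq tables of GRCm38.p6, and 69 of the 78 genes matched a promoter. The gene table gives no strand, so both ends of a gene were used. Groups came from the genotype labels. Each library came from its own embryo, the labels name no batch, and replicate numbers follow accession order. The smallest exact two-sided permutation p was 0.2. The ranking step was tested on simulated data.

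The members and lists were chosen with earlier results of these data known. Named genes were those without a gene-end peak in some library, those with regions in both controls and no mutant or the reverse, the 6 highest and 6 lowest in rank, up to 5 with the largest rank difference each way among regions whose groups did not overlap, the 5 with most distal regions, and up to 10 pathway genes without a gene-end peak. Mrps21, Mrps18c, Mrps27, Mrpl16, Mrpl37 and Mrpl57 as rank differences, Mrpl52, the marker genes and the pair partners were named after their values were seen. Alternatives changed overlap, q-value, windows, list length, ranking and libraries.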

Additional observations from a re-analysis of the deposited data

How the results depend on the processing

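Absent distal regions near the mitochondrial ribosomal protein genes numbered 12, and 5 when peaks needed a −log10 q of 10 or more, 3 with lists of equal length, 7 within 10 kb and 40 within 50 kb. In each of these settings their share was below that over all distal regions near a gene. The absent gene-end regions numbered 1, and 0 with lists of equal length and 2 with a window of 2 kb. The shares over all gene-end regions were 4.64%, 1.03% and 6.55%. The YY1 motif was in 12 promoters, and in 4 with the 250 bases before the start. Leaving out 1 library at a time gave 1 to 8 absent gene-end regions, 13 to 44 absent distal regions, 13 to 26 regions ranked higher in mutants, 6 to 21 ranked lower, and 73 to 76 genes with a gene-end peak in all libraries. Fewer libraries make absence and separation easier to reach. Genes with a gene-end peak in all 5 libraries numbered 74 of 78, and 59 (75.6%, against 41.9% over all genes) with a −log10 q of 10 or more. That change and those of all other counts stayed within 1.5 times. No rank difference of a region whose groups did not overlap changed sign. The share of regions ranked higher in mutants lay below that over all gene-end regions as reported (8.54%, against 10.3%) and above it with lists of equal length (12.7%, against 9.97%), by strongest summit (11.8%, against 10.3%) and with a window of 500 bp (10.4%, against 10.3%). Motifs around the summit were not run, as no genome was used here. No paired analysis was possible because the replicate numbers follow accession order and pair no samples. Regions weaker than the lowest fold of a list cannot be seen, and the read depth is unknown.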

Other observations

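The annotation also holds 6 pseudogenes named after mitochondrial ribosomal protein genes, such as Mrps36-ps1 and Mrpl48-ps. None of the 6 had a peak within 1 kb of an end in any library. The share over all pseudogenes was not counted, so no contrast with the genes is drawn. The sources used here do not state whether reads that map to several copies were kept.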
